A study of Mus musculus with 9 samples.

Results

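The 9 genes described here encode receptors through which the brain reads hunger and satiety signals: the leptin receptor (Lepr), the insulin receptor (Insr), the melanocortin receptors Mc3r and Mc4r, the ghrelin receptor Ghsr, the neuropeptide Y receptors Npy1r, Npy2r and Npy5r, and the glucagon-like peptide 1 receptor Glp1r. They were taken by name, as every array probe whose RefSeq accession maps to one of these symbols, which gave 9 of the 16358 genes that could be named and 11 of the 22951 named probes. Male wild-type C57BL/6J mice of 8 to 9 weeks were kept on 3 feeding regimens and killed at 14:00 on day 8. CR mice were given restricted food, 0.5 times the amount that the RFR mice had eaten, spread over 2 days. RFR mice were fasted and refed on alternate days, and AD mice ate freely and served as the controls. RNA of the hypothalamus, the amygdala and the prefrontal cortex was pooled from 4 mice per diet, and 400 ng of each pool was labelled with Cy3 for 1 Agilent whole mouse genome array, so each region and diet has 1 array and no replicate.

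Leptin and insulin report on fat stores and blood glucose and restrain feeding through neurons of the hypothalamus. There, Pomc neurons release melanocortins that act on Mc3r and Mc4r to reduce intake, while Agrp neurons release Agrp, which blocks these receptors, and neuropeptide Y, which acts on Npy1r and Npy5r to increase intake. Npy2r sits largely on nerve terminals, where it limits the release of neuropeptide Y, and it is also the receptor for the gut peptide PYY(3-36). Ghrelin from the stomach acts on Ghsr to increase intake, and glucagon-like peptide 1 acts on Glp1r to reduce it. Several of these receptors are also used outside the hypothalamus, the neuropeptide Y receptors in cortex and amygdala among them.

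A level is given below as a log2 value in which 0 stands for the 75th percentile of the processed signal over all noncontrol spots of an array. These percentiles ranged from 711 to 1124 signal units, and 59.8% to 69.6% of the noncontrol spots were well above background by the scanner software's own flag. The regional labels were checked against marker genes. Of 10 hypothalamic markers, all but Otp (9) were well above background on the hypothalamus arrays, against 7 or 8 on each amygdala array and 4 on each prefrontal cortex array. Their summed signal was 333 to 420 times the 75th percentile in hypothalamus, 9.66 to 13.2 times in amygdala and 0.361 to 0.508 times in prefrontal cortex. Cortical markers summed to 34.8 to 39.7 in prefrontal cortex, 24.2 to 29.5 in amygdala and 4.01 to 4.83 in hypothalamus. The 8 amygdala markers summed to 36.1 to 46.5 in amygdala, 13.1 to 15.0 in hypothalamus and 14.0 to 16.0 in prefrontal cortex. At least 7 of them were well above background on every array. The arrays lay on 3 slides. Slide 1 held the 3 AD arrays and RFR prefrontal cortex, slide 2 held RFR amygdala, RFR hypothalamus, CR hypothalamus and CR prefrontal cortex, and slide 3 held CR amygdala by itself. No CR array shared a slide with an AD array, so CR and AD are compared across slides. The CR arrays of hypothalamus and prefrontal cortex are linked to AD only through the RFR arrays, which lie on slides 1 and 2. CR amygdala has no such link.

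Detection divided the 9 receptors. Mc3r (with its probe A_51_P467284), Mc4r, Npy1r and Npy5r were well above background on 9 of 9 arrays and Npy2r on 8 of 9. The probes for Lepr, Insr and Glp1r were well above background on 0 of 9 arrays, and those for Ghsr on 0 and 2 of 9. A gene was tested for regional and dietary differences only if at least 3 arrays showed it well above background. This filter was passed by 5 of the 9 receptors and by 12619 of the 16358 named genes. For the 4 others, readings that were not well above background are bounds and say nothing on whether the receptor is made.

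**Figure D1:**
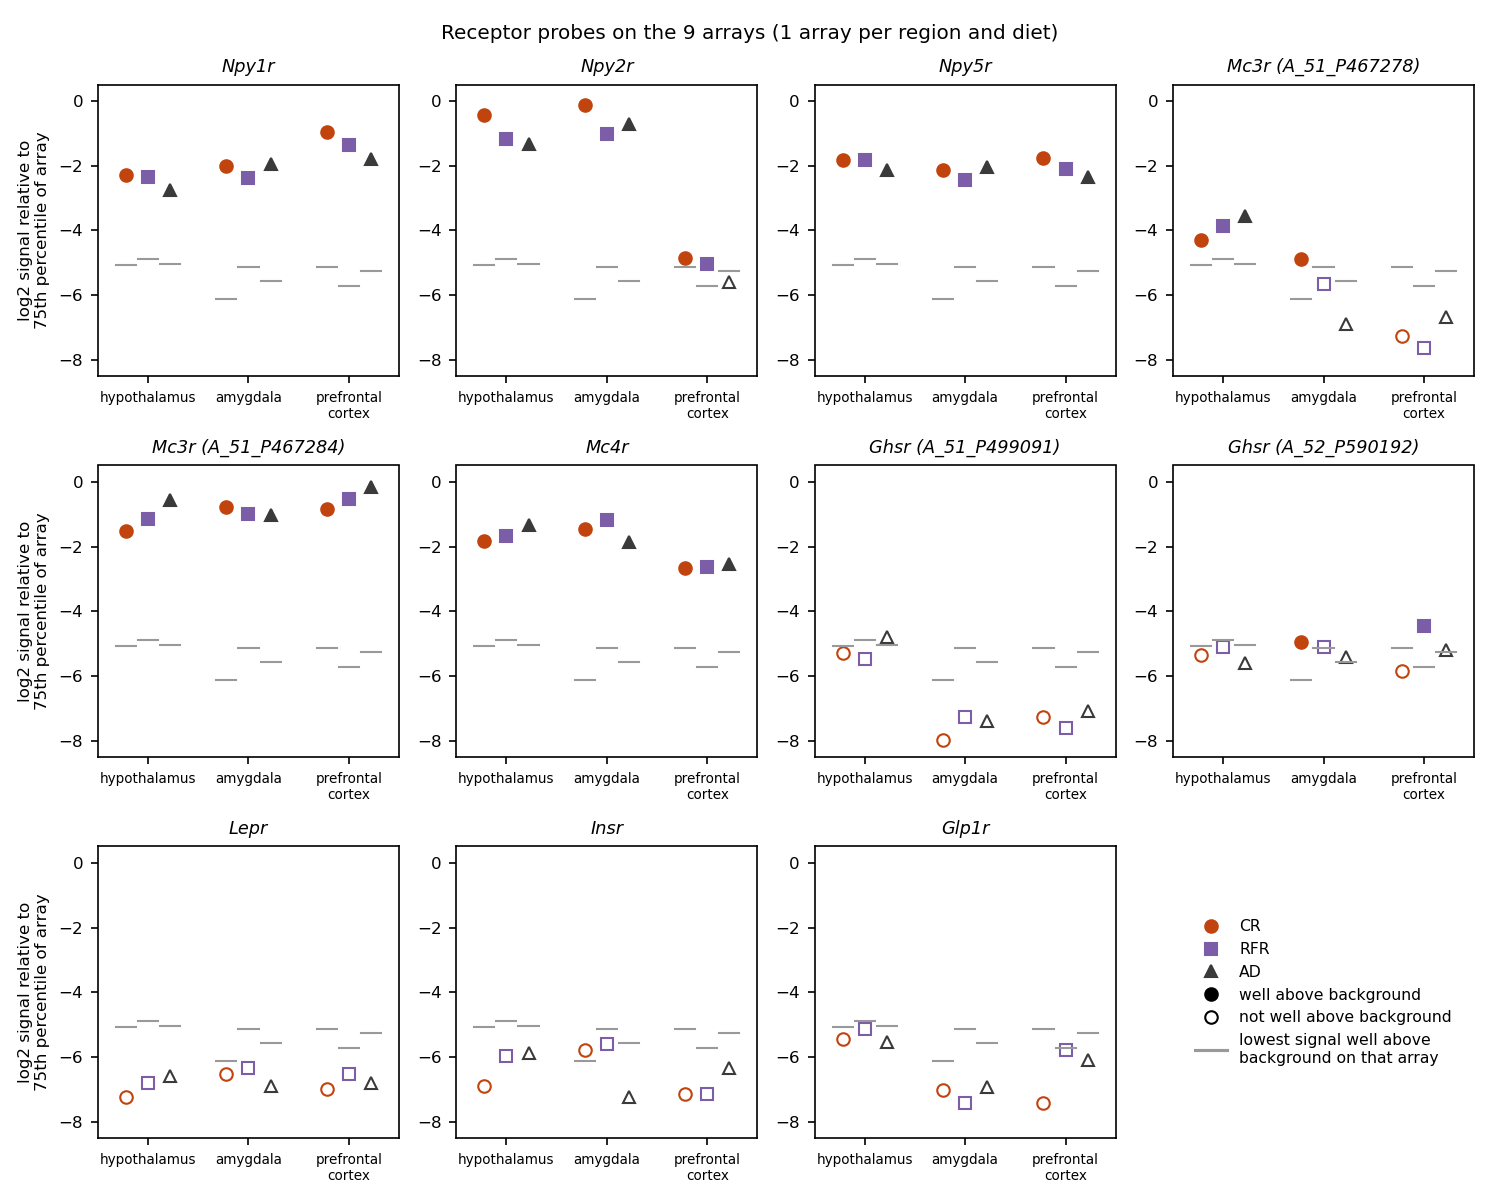
Log2 signal of the 11 receptor probes on the 9 arrays, relative to the 75th percentile of each array, by region and diet; filled symbols are well above background, open symbols are not, and grey lines mark the lowest signal that was well above background on that array. Npy2r was near or below that line on the 3 prefrontal cortex arrays and far above it on the other 6, and the 2 Mc3r probes differed in their pattern.

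The neuropeptide Y receptors had 3 different regional patterns. Npy2r was 18.1-fold higher in hypothalamus and 23.2-fold higher in amygdala than in prefrontal cortex, where its AD reading was not well above background. Npy1r ran the other way, 2.13-fold lower in hypothalamus and 1.67-fold lower in amygdala than in prefrontal cortex. Its amygdala call was lost when slide was added to the test or when the CR or RFR pool was left out. Npy5r lay within 0.69 log2 units on all 9 arrays and passed no regional test. Because whole tissue was measured, a lower level in a region can come from fewer cells that carry a receptor or from less RNA per cell, and these cannot be told apart.

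Npy1r and Npy5r are neighbours on mouse chromosome 8, with 0 annotated genes between them, and are read from opposite strands. Their start regions are shown because the levels of these 2 genes moved together from array to array, and that of Npy2r because this receptor had the widest range among the 9. Each is the 300 bases around the gene's start in RefSeq (GRCm38.p6), printed 5′ to 3′ on the gene's strand, with motif matches in capitals. The Npy1r window is chr8:66697172-66697471 (plus strand), the Npy5r window chr8:66688045-66688344 (minus strand) and the Npy2r window chr3:82548036-82548335 (minus strand).
Npy1r: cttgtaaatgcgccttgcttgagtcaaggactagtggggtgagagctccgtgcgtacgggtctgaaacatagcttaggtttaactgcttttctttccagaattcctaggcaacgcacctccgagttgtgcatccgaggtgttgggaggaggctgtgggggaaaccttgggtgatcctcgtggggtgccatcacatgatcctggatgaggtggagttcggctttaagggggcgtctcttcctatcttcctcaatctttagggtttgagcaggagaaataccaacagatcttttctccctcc
Npy5r: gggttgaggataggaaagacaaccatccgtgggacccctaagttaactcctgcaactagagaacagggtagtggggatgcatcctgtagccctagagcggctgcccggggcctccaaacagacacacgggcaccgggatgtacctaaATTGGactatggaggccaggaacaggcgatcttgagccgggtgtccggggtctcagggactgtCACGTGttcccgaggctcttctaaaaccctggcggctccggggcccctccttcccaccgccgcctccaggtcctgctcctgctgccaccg
Npy2r: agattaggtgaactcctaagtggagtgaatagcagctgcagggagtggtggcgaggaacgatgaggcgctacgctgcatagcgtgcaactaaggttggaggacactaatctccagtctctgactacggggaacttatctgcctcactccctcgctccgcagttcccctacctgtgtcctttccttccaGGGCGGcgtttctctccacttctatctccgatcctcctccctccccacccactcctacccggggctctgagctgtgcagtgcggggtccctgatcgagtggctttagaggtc
The motifs searched, on both strands, were the TATA box TATAAA, the GC box GGGCGG, the CREB motif TGACGTCA and its shorter form TGACG that lies within it, the CCAAT box spelled by its name, the STAT motif TTCNNNGAA, the E box CACGTG and the FOXO motif GTAAACA. In the Npy5r window CCAAT was matched on the other strand (ATTGG), with its first base at position -103 from the start, and CACGTG at position -40; 37.4% and 7.15% of 32851 mouse promoters of this length hold a match to these. The Npy2r window held 1 GGGCGG at position -62, a motif found in 35.7% of promoters, and the Npy1r window held none of the 8 motifs. G and C made up 51.7% of the Npy1r window, 61.7% of that of Npy5r and 57.7% of that of Npy2r, against a median of 52.7% over all promoters. The Npy1r and Npy5r windows are 8827 bases apart.

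Npy2r, the presynaptic receptor, had a level of -0.45 on the CR, -1.18 on the RFR and -1.33 on the AD array of hypothalamus. In amygdala it had -0.15 on the CR, -1.04 on the RFR and -0.71 on the AD array. In prefrontal cortex it had -4.86 on the CR and -5.05 on the RFR array, and -5.59 on the AD array, where it was not well above background. All 6 hypothalamus and amygdala arrays lay above all 3 prefrontal cortex arrays. The hypothalamic mean was -0.99 ± 0.47 and the amygdalar mean -0.63 ± 0.45, against -5.17 ± 0.38 in prefrontal cortex (SD, n = 3 each). The difference was 4.18 ± 0.17 for hypothalamus minus prefrontal cortex (log2 ± SE, limma, adjusted p = 5.35e-06) and 4.53 ± 0.17 for amygdala minus prefrontal cortex (adjusted p = 1.75e-05). Hypothalamus and amygdala overlapped and differed by -0.36 ± 0.17, which did not pass the limma test (adjusted p = 0.172). Between the CR arrays of hypothalamus and prefrontal cortex, which share slide 2 and were both well above background, the difference was 4.41.

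Npy1r, a mainly postsynaptic receptor, had -2.29, -2.35 and -2.75 on the CR, RFR and AD arrays of hypothalamus. The levels in amygdala were -1.9995, -2.38 and -1.96 in the same order of diets, and those in prefrontal cortex were -0.97, -1.36 and -1.81. Every prefrontal cortex array was thus above every array of the other regions, by a small margin between AD prefrontal cortex and AD amygdala. The hypothalamus minus prefrontal cortex difference was -1.09 ± 0.19 (log2 ± SE, limma, adjusted p = 0.00345), and the amygdala minus prefrontal cortex difference was -0.74 ± 0.19 (adjusted p = 0.0359). The amygdalar value rests on the CR and RFR pools: it was -1.03 between the CR arrays and -1.02 between the RFR arrays, which are on different slides, and -0.15 between the AD arrays, which share a slide. With slide as a term in the limma fit it was -0.55 (adjusted p = 0.292), and without the CR amygdala array -0.65 (adjusted p = 0.114). It also missed the threshold without the CR pool (-0.59, adjusted p = 0.208) and without the RFR pool (-0.59, adjusted p = 0.249). The hypothalamus minus prefrontal cortex difference was -0.95 between the AD arrays and -1.32 between the CR arrays, both pairs on a shared slide.

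Npy5r, which shares the role of Npy1r in feeding, had -1.81, -1.84 and -2.14 in hypothalamus, -2.13, -2.44 and -2.04 in amygdala and -1.76, -2.10 and -2.36 in prefrontal cortex (CR, RFR, AD). The 3 regions overlapped in every pairing. Its 3 regional differences were between -0.13 and 0.27 log2 units, and none passed the limma test (adjusted p = 0.262 to 0.63).

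**Figure D2:**
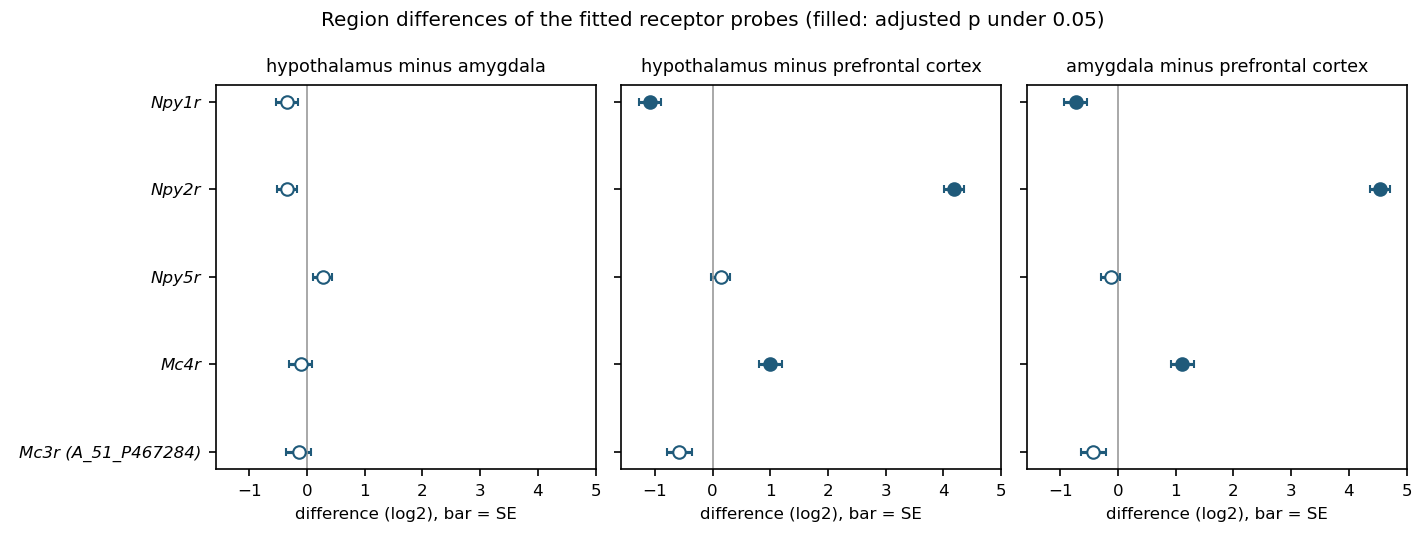
Regional differences of the receptors that could be tested, in log2 units with the standard error from limma; filled symbols have an adjusted p under 0.05. Npy2r stands 4.18 and 4.53 above prefrontal cortex and Mc4r 1.00 and 1.11 above it, Npy1r stands at -1.09 and -0.74, and Mc3r is shown with probe A_51_P467284.

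Mc4r, the melanocortin receptor with the larger part in food intake, was higher in both deeper regions than in prefrontal cortex. It had -1.81, -1.66 and -1.34 on the CR, RFR and AD arrays of hypothalamus, -1.46, -1.17 and -1.86 on those of amygdala, and -2.66, -2.62 and -2.55 on those of prefrontal cortex. The prefrontal cortex arrays were alike and lay below all others. Hypothalamus averaged -1.61 ± 0.24 and amygdala -1.50 ± 0.35, against -2.61 ± 0.06 in prefrontal cortex (SD, n = 3 each). The difference was 1.00 ± 0.20 for hypothalamus minus prefrontal cortex (limma adjusted p = 0.00533) and 1.11 ± 0.20 for amygdala minus prefrontal cortex (2.16-fold, adjusted p = 0.00791). Between the AD arrays, on 1 slide, these differences were 1.21 and 0.69. With slide as a term, the amygdala minus prefrontal cortex difference was 0.90 and no longer passed the limma test (adjusted p = 0.138). Nor did it pass without the CR pool (1.07, adjusted p = 0.0641) or without the RFR pool (0.94, adjusted p = 0.109). Hypothalamus and amygdala differed by -0.11 ± 0.20 (adjusted p = 0.714).

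Mc3r, a receptor that hypothalamic Pomc and Agrp neurons also carry, gave different answers with its 2 probes, both assigned to NM_008561. Probe A_51_P467284 had -1.53, -1.14 and -0.57 on the CR, RFR and AD arrays of hypothalamus, -0.78, -1.002 and -1.02 on those of amygdala, and -0.83, -0.53 and -0.15 on those of prefrontal cortex. The regions overlapped, and the hypothalamus minus prefrontal cortex difference of -0.57 ± 0.21 did not pass the limma test (adjusted p = 0.0631). That difference passed with normexp background correction (-0.51, adjusted p = 0.0243) and with quantile scaling (-0.63, adjusted p = 0.0418).

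Probe A_51_P467278 was well above background on the 3 hypothalamus arrays, with -4.30, -3.86 and -3.55 (CR, RFR, AD), and on CR amygdala, with -4.88. It was not well above background on RFR amygdala (-5.66), AD amygdala (-6.90) or the prefrontal cortex arrays (-7.26, -7.63 and -6.67). Hypothalamus lay above both other regions with no overlap. Set against the lowest signal well above background in prefrontal cortex, hypothalamus was at least 2.75-fold higher. The probe entered the test through its hypothalamus arrays and CR amygdala, so no p is given for it. What distinguishes the 2 probes was not tested, because their sequences were not used here.

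Among all 12619 genes tested, the share called was 48.0% for hypothalamus minus prefrontal cortex, 22.3% for amygdala minus prefrontal cortex and 29.5% for hypothalamus minus amygdala. Of the 5 tested receptors, Npy1r, Npy2r and Mc4r were called in the first comparison (3 of 5) and the same 3 in the second, and 0 were called in the third. The arrays of the 2 regions did not overlap for these 3 receptors in either comparison, as was the case for 59.5% of 12535 genes between hypothalamus and prefrontal cortex and 34.1% between amygdala and prefrontal cortex. Between hypothalamus and amygdala, 0 of 5 also had an unadjusted limma p under 0.05, a mark that 40.9% of all genes passed. Other cell populations moved with the regional comparisons. Neuron markers were lower in hypothalamus than in prefrontal cortex (3 of 5 called, median difference -1.52), oligodendrocyte markers were higher (5 of 5, median 1.28) and so were choroid plexus markers (8 of 9, median 2.78). In amygdala minus prefrontal cortex, neuron markers were lower (3 of 5 called, median -0.57), and choroid plexus markers (7 of 9, median 2.83) and oligodendrocyte markers (2 of 5, median 0.44) were higher. The choroid plexus markers Ttr, Kcne2, Calml4 and Sostdc1 were not well above background on any prefrontal cortex array. The choroid plexus counts and medians of these 2 comparisons therefore rest in part on background values. The part of these cell populations in the receptor differences was not tested.

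The receptors that could not be tested still gave per-array readings. Ghsr, which raises intake on binding ghrelin, had -5.27, -5.46 and -4.78 with probe A_51_P499091 on the CR, RFR and AD arrays of hypothalamus. The same probe had -7.97 to -7.24 in amygdala and -7.61 to -7.06 in prefrontal cortex. None of these spots was well above background. The scanner software's weaker flag, a signal positive and significant over the local background, was set on 3 of 9 arrays, those of hypothalamus. The other Ghsr probe, A_52_P590192, had -5.85 to -4.44 over the 9 arrays with overlap of all regions. It was well above background on CR amygdala and RFR prefrontal cortex, and its weaker flag was set on 9 of 9 arrays. Glp1r had -5.44, -5.13 and -5.53 in hypothalamus (CR, RFR, AD), -7.41 to -6.92 in amygdala and -7.40 to -5.76 in prefrontal cortex. As with the first Ghsr probe, the hypothalamus arrays were the 3 highest. The lowest level well above background differed between arrays, with -5.03 on AD hypothalamus and -5.73 on RFR prefrontal cortex. This order of bounds is therefore not read as a regional difference. The weaker flag was set for Glp1r on 7 of 9 arrays, the 3 of hypothalamus among them. No array was well above background, so no fold is given.

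Lepr was read with a probe printed 10 times (NM_010704) and had -7.23 to -6.58 in hypothalamus, -6.90 to -6.34 in amygdala and -6.99 to -6.51 in prefrontal cortex. Insr had 1 probe (NM_010568), with -6.89 to -5.87 in hypothalamus, -7.21 to -5.59 in amygdala and -7.15 to -6.33 in prefrontal cortex. For both genes the 3 regions overlapped. The weaker flag was set on 5 of 9 arrays for Lepr and on 7 of 9 for Insr. Signals were 6.80 to 12.3 units for Lepr and 5.57 to 20.3 units for Insr, where the lowest spot well above background was at 14.8 to 36.3 units, depending on the array. Any effect of region or diet on these 2 receptors was not detectable with these probes.

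None of the 5 tested receptors passed the test for a dietary difference. Nor did any gene for CR minus AD (0.0% of 12619 genes by limma, with 2086, or 16.5%, at an unadjusted p under 0.05). In RFR minus AD 2 genes passed (0.0158%), and the comparison CR minus RFR called the same 2 (0.0158%). These are the pituitary hormone genes Prl and Gh, well above background on the 3 RFR arrays and on none of the 6 others, and are named here after their values were seen. The 3 arrays of a diet come from the same mice, so these p-values, which take the regions as replicates, are too small. Npy2r had the largest difference of the tested receptors, with 0.72 ± 0.17 for CR minus AD (limma adjusted p = 0.205). Its CR arrays were above the AD arrays in 3 of 3 regions, as they were for 12.3% of genes, although in prefrontal cortex the AD array was not well above background. CR minus RFR was 0.60 ± 0.17 for Npy2r (adjusted p = 0.22), and 0.73 between the hypothalamus arrays, which share slide 2, a difference that 1.80% of genes reached or passed in either direction. Between the same 2 arrays 9 of 9 meningeal fibroblast markers were also higher in CR (median 0.78). With normexp background correction, the Npy2r difference for CR minus AD was 0.26 (adjusted p = 0.417).

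Npy1r and Npy5r differed by 0.42 ± 0.19 and 0.28 ± 0.17 for CR minus AD over the regions (limma adjusted p = 0.337 and 0.433). Within regions, Npy1r on the CR array was 0.84 above AD in prefrontal cortex and 0.46 above it in hypothalamus, and differed by -0.04 in amygdala. Npy5r differed by 0.61, 0.32 and -0.10 in the same order. RFR minus AD was 0.45 for Npy1r and 0.27 for Npy5r in prefrontal cortex, the only region where these arrays share a slide. In amygdala, RFR minus AD was -0.42 for Npy1r and -0.41 for Npy5r.

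Mc3r (probe A_51_P467284) had -0.47 ± 0.21 for CR minus AD (limma adjusted p = 0.335), made up of -0.96 in hypothalamus, 0.24 in amygdala and -0.68 in prefrontal cortex. Without the 3 amygdala arrays the difference was -0.82 ± 0.10 and passed the limma test (adjusted p = 0.0432). That fit left 2 residual degrees of freedom and called 1236 of 12619 genes, so Mc3r was 1 of many. The fits without hypothalamus or without prefrontal cortex called 1 gene each for CR minus AD. In the fit without amygdala Npy2r had 0.80 (limma adjusted p = 0.0525) and Npy1r 0.65 (adjusted p = 0.0509). Without the CR amygdala array alone, Mc3r had -0.74 (limma adjusted p = 0.178). Within slide 2, CR minus RFR in hypothalamus was -0.39, and within slide 1, RFR minus AD in prefrontal cortex was -0.38. Mc4r had -0.06 ± 0.20 for CR minus AD (adjusted p = 0.894), with -0.47 in hypothalamus, 0.40 in amygdala and -0.11 in prefrontal cortex. Within 1 region, 0 of the 5 receptors reached 1 log2 unit in any of the 9 dietary comparisons with both arrays well above background, a size that few genes reached either. For CR minus AD it was reached by 1.34% of genes in hypothalamus, 3.26% in amygdala and 1.13% in prefrontal cortex. The shares for RFR minus AD were 0.691%, 1.47% and 0.971% in the same order of regions, and those for CR minus RFR were 0.528%, 2.16% and 0.819%. No test was possible there, with 1 array against 1 array.

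Markers of neighbouring tissue differed between some arrays of different diets. Each comparison sets 1 array against 1 array, so diet cannot be told apart from other differences between the arrays. The median of all genes lay between -0.11 and 0.03 in the comparisons given here. RFR minus AD in amygdala was positive for 8 of 8 choroid plexus markers (median 1.08). CR minus AD in hypothalamus was positive for 9 of 9 meningeal fibroblast markers (median 0.70), and in prefrontal cortex it was positive for 1 of 10 (median -0.56). CR minus AD in amygdala was positive for 3 of 5 oligodendrocyte markers (median 0.57). CR minus RFR was positive for 5 of 5 of them in hypothalamus (median 0.26), 5 of 5 in amygdala (0.59) and 4 of 4 in prefrontal cortex (0.62), the comparison in which Npy2r had 0.60 over the regions. The part of these tissues in the receptor values was not tested.

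**Figure D3:**
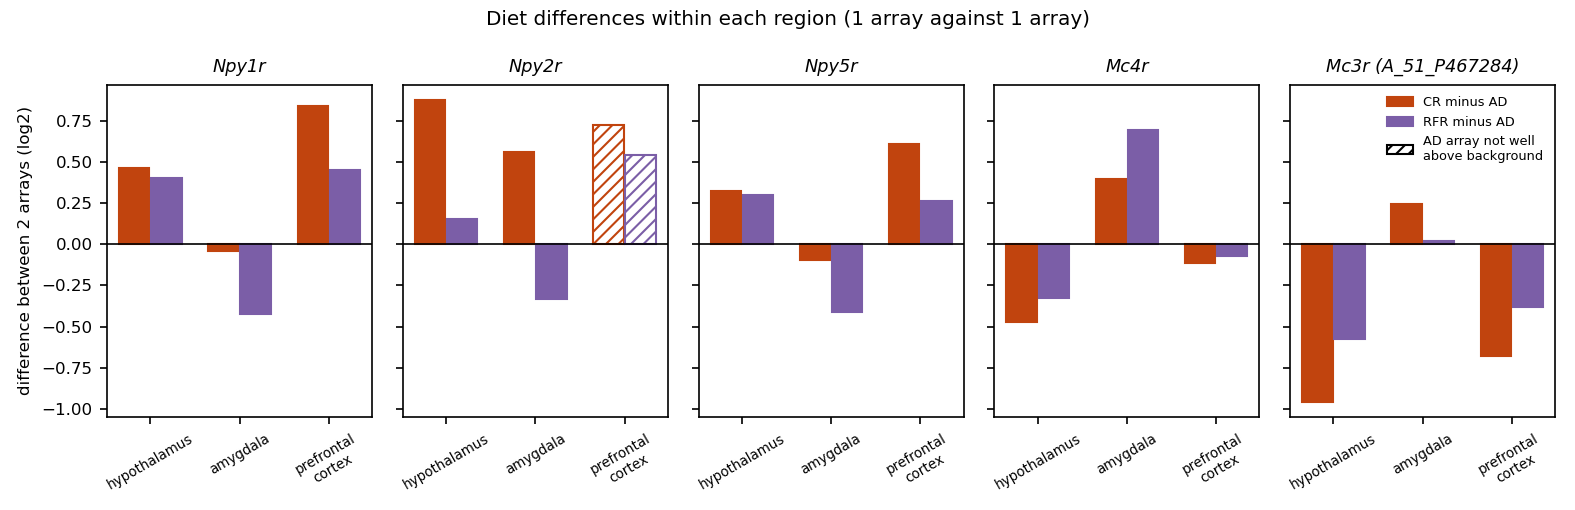
Dietary differences of the 5 testable receptors within each region, in log2 units, each bar being 1 array minus 1 array (CR minus AD and RFR minus AD); hatched bars mark Npy2r in prefrontal cortex, where the AD array was not well above background. No bar reaches 1 log2 unit, and the bars of Npy1r and Npy5r are below 0 in amygdala and above 0 in the other regions.

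The levels of Npy1r and Npy5r followed each other across arrays once the regional means were taken away. Npy1r deviated from its regional mean by 0.18, 0.11 and -0.29 in hypothalamus (CR, RFR, AD), 0.11, -0.27 and 0.16 in amygdala and 0.41, 0.02 and -0.43 in prefrontal cortex. The deviations of Npy5r were 0.12, 0.09 and -0.21, then 0.07, -0.24 and 0.17, then 0.32, -0.03 and -0.29. Pearson's r was 0.989 over the 9 arrays, and 0.988 without the 2 arrays farthest from the median of Npy1r. Of 12534 genes, Npy5r was the one with the highest such r with Npy1r (rank 1), and Npy1r was rank 1 for Npy5r. With normexp background correction r was 0.961. Without centring, r was 0.27, since the 2 genes differ in regional pattern. The deviations of Npy2r correlated with those of Npy1r at 0.773 (rank 863) and at 0.148 with normexp, so that relation depended on the background correction. These values are a description, chosen after the values were seen: the 9 arrays share 3 pools of mice and 3 slides, and no p is given.

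**Figure D4:**
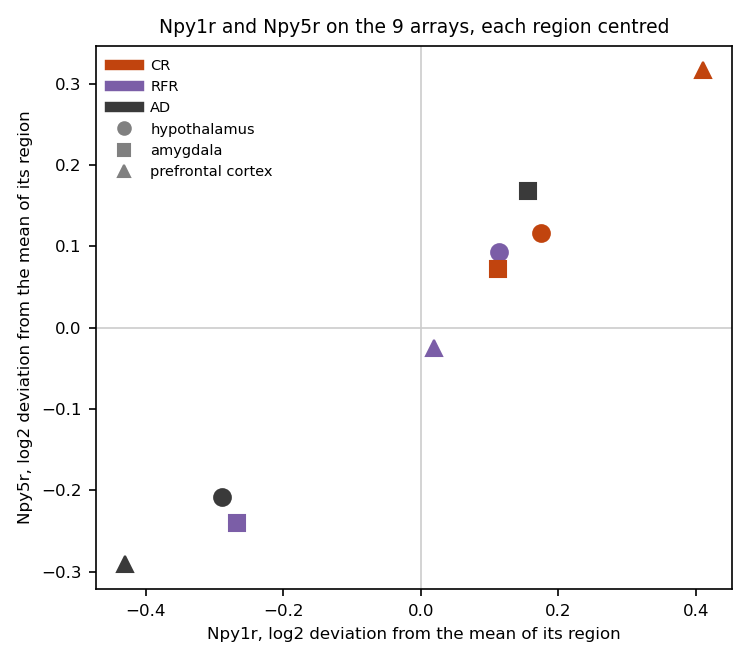
Deviation of each array from the mean of its region, in log2 units, for Npy1r (horizontal) and Npy5r (vertical), coloured by diet and shaped by region. The 9 arrays lie along a line, from AD prefrontal cortex (-0.43 and -0.29) to CR prefrontal cortex (0.41 and 0.32).

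For each tested receptor, the genes with the most similar levels over the 9 arrays were listed. For Npy2r these were Plaat3, Klhl13 and Selenov (r of 0.99 each), for Mc4r Kazn, Padi2 and Smpdl3b (0.97 to 0.99), for Npy1r Myo5a, Hdac4 and C77080 (0.97 to 0.98), for Mc3r Hras, Ppp2ca and Map1lc3a (0.96 to 0.97) and for Npy5r 2410141K09Rik, Map2k4 and Zfp51 (0.95 to 0.96). They are the highest of 11230 or 11231 genes, and the arrays share pools and slides.

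Of 11 genes for ligands of these receptors, 5 could be tested, where 12619 of all 16358 named genes could. Hypothalamus minus prefrontal cortex was called in 4 of them, 3 higher and 1 lower, where 48.0% of all genes were called, 26.7% higher and 21.3% lower. The median of the 5 was 1.21, against 0.06 for all genes. Agrp, the melanocortin antagonist, had 0.98, 1.13 and 0.76 on the CR, RFR and AD arrays of hypothalamus and was not well above background in prefrontal cortex. Hypothalamus was at least 77.3-fold higher, and no p is given because the cortical values were at background. Agrp is 1 of the 3 ligands counted as higher, a call that rests on those cortical values. With Agrp set at its bound the median of the 5 stayed at 1.21. Pomc, the precursor of the melanocortins, had 3.92, 4.07 and 4.88 in hypothalamus and -0.44, 0.64 and -0.18 in prefrontal cortex, a difference of 4.28 ± 0.41 (limma adjusted p = 1.89e-04). Npy was lower in hypothalamus than in prefrontal cortex by the same test, at 1.84, 1.63 and 1.50 against 3.37, 3.24 and 3.34 (difference -1.66 ± 0.16, adjusted p = 1.91e-04), as Npy1r was. Ins2, 1 of the 2 mouse insulin genes, was higher in hypothalamus (1.21 ± 0.09), and Pyy, a ligand of Npy2r, had -0.19 ± 0.25 and was not called. No ligand passed the test for diet. In the amygdala, Pomc had -0.24 on the CR and 1.84 on the RFR array, against 0.29 on the AD array. Pomc is also made in the pituitary. On the RFR arrays Prl had -2.04 in hypothalamus, -1.43 in amygdala and -1.84 in prefrontal cortex, against -8.19 to -7.16 on the 6 CR and AD arrays. Of 8 pituitary markers 6 were tested, and for RFR minus AD 2 were called and 4 were not. Fshb and Pou1f1 were not well above background on any RFR array, nor was Tshb in RFR amygdala or prefrontal cortex. Pomc was highest on the RFR array in amygdala and prefrontal cortex, and on the AD array in hypothalamus. The part of pituitary RNA in the Pomc levels was not tested.

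**Figure D5:**
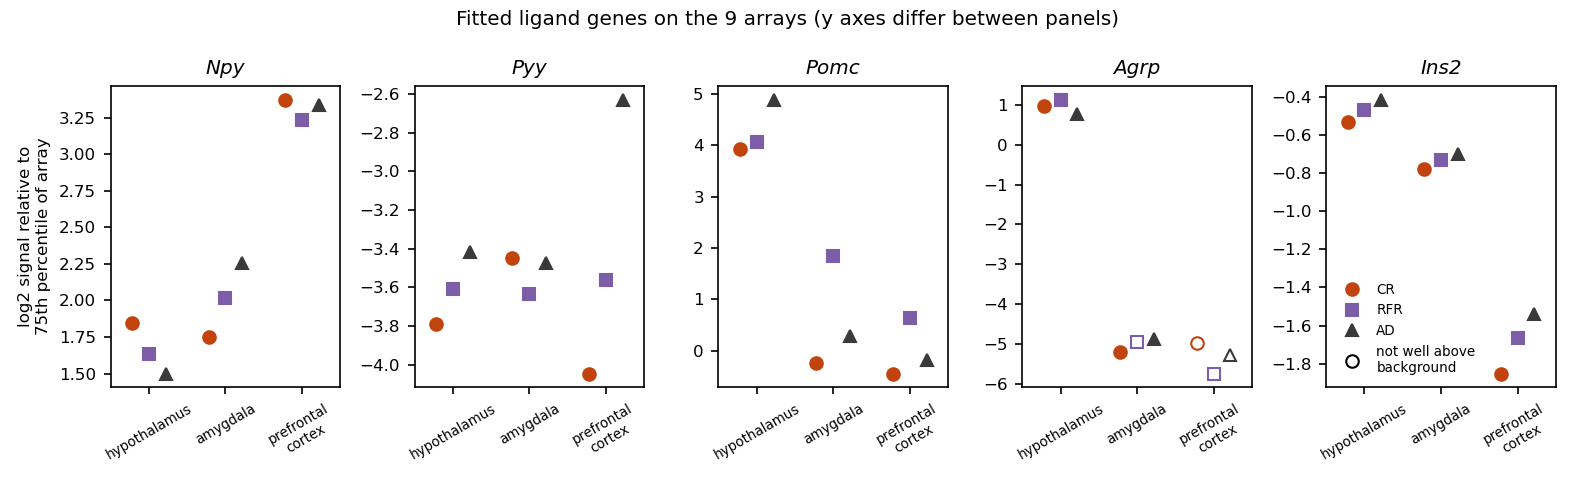
Log2 level of the 5 ligand genes that could be tested, on the 9 arrays, by region and diet; open symbols are not well above background, and the vertical axes differ between panels. Pomc and Agrp are highest in hypothalamus, and Npy is highest in prefrontal cortex.

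The genes that pass on the leptin and insulin signals were well measured, in contrast to the receptors themselves: 25 of 27 could be tested. In hypothalamus minus prefrontal cortex, 5 were higher, 11 lower and 9 not called (16 of 25 called, against 48.0% of all genes, 26.7% higher and 21.3% lower). The median was -0.30, against 0.06 for all genes. Grb10, an adaptor that binds the insulin receptor, was higher by 2.34 ± 0.11, and Stat5b, a transcription factor downstream of leptin, by 1.41 ± 0.10. Akt2, a kinase of the insulin pathway, had -1.64 ± 0.17, and Pik3r2, a regulatory subunit of PI3 kinase, had -1.30 ± 0.09 (all with a limma adjusted p below 0.05). In each of the 3 dietary comparisons 0 of 25 were called by limma, as was also the case for the 3 lists that follow.

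Of 15 partners of the receptors and enzymes that process their ligands, 13 were tested. Hypothalamus minus prefrontal cortex had 3 higher, 6 lower and 4 not called (median -0.25), where 26.7% of all genes were higher and 21.3% lower. Pcsk1, a convertase that cuts Pomc, was higher in hypothalamus (2.05 ± 0.15), whereas Pcsk2, which cuts its products further, was lower (-1.40 ± 0.13). Dpp4, which trims glucagon-like peptide 1 and PYY, was lower as well (-2.18 ± 0.22). Mrap, an accessory protein of melanocortin receptors, was not well above background in hypothalamus and was at least 2.25-fold lower there than in prefrontal cortex. Its entry in these counts rests on those background values. Of 11 other receptors of the same families, 5 were tested and 2 were called lower, the insulin-like growth factor receptor Igf1r (-0.42 ± 0.10) and Glp2r (-0.50 ± 0.10), a receptor of glucagon-like peptide 2. None was called higher, where 26.7% of all genes were higher and 21.3% lower. Insrr, a relative of the insulin receptor, had -0.27 ± 0.22 and did not pass (limma adjusted p = 0.338). Gcgr, the glucagon receptor, was well above background on 0 of 3 hypothalamus and 1 of 3 prefrontal cortex arrays, and no difference is given for it. The list had a median of -0.31, or -0.27 with genes below background in a region set at their bound.

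Among 23 other receptors tied to feeding, 17 were tested, with 8 higher and 4 lower in hypothalamus than in prefrontal cortex (median 0.09). Of all genes, 26.7% were higher and 21.3% lower. The largest fitted differences were those of Calcr, the calcitonin receptor through which amylin acts, at least 144-fold higher, and Cckar, a receptor of the gut peptide cholecystokinin, at least 20.1-fold higher, both below background in prefrontal cortex. Crhr2, a receptor of the urocortins, was higher by 3.83 ± 0.17, and Galr1, a galanin receptor below background in prefrontal cortex, at least 2.60-fold higher. Calcr, Cckar and Galr1 are among the 8 counted as higher, and those calls rest on cortical values below background. Galr1 is named for its fitted value, and larger differences were measured in both regions for Cckbr, the other cholecystokinin receptor (-2.78 ± 0.19), Crhr1, a receptor of corticotropin-releasing hormone (-2.41 ± 0.14), and Htr2c, a serotonin receptor (2.19 ± 0.18), named after their values were seen. Between hypothalamus and amygdala, 7 of these 17 were higher and 4 lower, where 15.9% of all genes were higher and 13.5% lower.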

How the data were processed

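Messenger RNA was measured on 9 single-colour Agilent arrays. Per the file headers, the deposited processed signal is an intensity from Agilent Feature Extraction 9.5.1.1, after that software's background subtraction and not scaled between arrays. The deposited median spot and median local background signals, also an intensity each, were used for the normexp alternative. The deposited flags for spots well above background, saturated or outlying are of another kind, values of 0 or 1. A further table, which the authors deposited with the series, gives for CR and RFR arrays a ratio to the AD array of the same region: 99.2% of its values were recovered to 0.01 log2 units from the processed signals and 1 constant per array. It was used only as an alternative.

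Outlier spots were left out, log2 intensities were taken relative to the 75th percentile of 43379 noncontrol spots, and spots of a probe were averaged. Probes were named from the RefSeq accession in the files through a mouse gene table (GRCm38.p6): 22951 of 41174 probes matched. For a gene with several probes, the one with the highest mean was used. A gene was tested if well above background on at least 3 arrays with a value on at least 6. Regions and diets were compared with limma 3.58.1 (R 4.3.3), with region and diet as terms, which left 4 residual degrees of freedom. P-values were adjusted over all genes by the Benjamini-Hochberg method, at 0.05. The fit was checked on simulated data. For a probe below background on all arrays of a region, a bound was used. On each such array it takes the higher of the probe's own signal and the lowest signal well above background. Some readings above that lowest signal were not well above background, such as Ghsr probe A_51_P499091 on AD hypothalamus (-4.78 against -5.03). A fold given as "at least" is therefore not a strict limit. The number of arrays limits the precision, and p-values measure the spread between arrays of pooled RNA.

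The receptors and gene lists were chosen with earlier results of these data known. Named from each list were the genes with the largest fitted hypothalamus minus prefrontal cortex differences, up to 4, including genes at background in 1 region, and every tested ligand. Genes of similar pattern are the 3 with the highest Pearson's r among genes well above background on all 9 arrays. The diet's mice are shared by its 3 arrays, so diet is a block in every regional test. Alternatives were other background correction, scaling, filters, probe rules, slide terms and left-out arrays.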

Additional observations from a re-analysis of the deposited data

Results flagged for a closer look

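Differences between diets that went opposite ways in 2 regions, each larger than the residual SD of the gene in the fit, were picked out. That SD is itself made of such gaps, since the fit lets each diet differ equally in all regions, so the rule is not a test. Every value compares 1 array with 1 array, and the difference between regions was not tested. Mc4r differed by -0.47 in hypothalamus and 0.40 in amygdala for CR minus AD, a gap of -0.87 log2 units. For RFR minus AD it differed by -0.32 in hypothalamus and 0.69 in amygdala, a gap of -1.02. Npy1r for RFR minus AD differed by 0.40 in hypothalamus and -0.42 in amygdala, a gap of 0.83, and the gap between amygdala and prefrontal cortex (0.45) was -0.87. Npy5r for RFR minus AD differed by 0.30 in hypothalamus and -0.41 in amygdala, a gap of 0.71, and the gap between amygdala and prefrontal cortex (0.27) was -0.67. The RFR amygdala array is also the one whose choroid plexus markers were above AD in 8 of 8 cases, and the part of that tissue was not tested.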

How the results depend on the processing

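Npy2r, Mc4r and Npy1r remained called for hypothalamus minus prefrontal cortex under every alternative run that could test them, and Npy2r also for amygdala minus prefrontal cortex. Leaving out 1 diet's pool or the CR amygdala array gave 0.94 to 1.32 for Mc4r and -1.03 to -0.59 for Npy1r (amygdala minus prefrontal cortex), without a call for Mc4r when the CR or RFR pool was left out and for Npy1r also without the CR amygdala array. With slide as a fixed term these were 0.90 and -0.55, both not called. That term also takes up the CR amygdala array, which is alone on its slide. With no filter on dim genes Npy1r kept its value of -0.74 and was not called (adjusted p = 0.0694). The Mc3r hypothalamus minus prefrontal cortex difference changed sign to 1.35 with the mean of both probes and to 3.28 with probe A_51_P467278, which also turned hypothalamus minus amygdala to 1.91; all 3 rest on values of that probe that were not well above background outside hypothalamus and CR amygdala. The cause was not tested. Genes called over the same left-out arrays, each time fewest without the RFR pool, ranged from 1429 to 3302 for hypothalamus minus amygdala, 3496 to 6697 for hypothalamus minus prefrontal cortex and 895 to 2574 for amygdala minus prefrontal cortex, where slide as a fixed term gave 1397. For CR minus AD, leaving out 1 region or the CR amygdala array gave 0 to 1236 (the last without amygdala), the values the authors deposited gave 3, and the slide term gave 5. For RFR minus AD these settings gave 1 to 2, 4 and 13 in the same order, normexp gave 1, no filter 1, and a filter of all 9 arrays or dim values at the floor 0. For CR minus RFR they gave 1 to 2, 21 and 0, normexp 41, the all-array filter 24, no filter 1, a variance trend 41 and the floor 15. Normexp lowered the genes of at least 1 log2 unit within a region to 71 (CR minus AD), 33 (RFR minus AD) and 31 (CR minus RFR) in hypothalamus, 142, 75 and 115 in amygdala and 56, 36 and 32 in prefrontal cortex. For RFR minus AD in prefrontal cortex the count was 75 from the authors' deposited ratios. Averaging a gene's probes raised it to 180, and that of CR minus RFR to 161.

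Without the diet as a replicate block, hypothalamus minus prefrontal cortex was 4.18 ± 0.30 for Npy2r, and the block changed no call among the receptors. Naming by the array's own gene names was planned and not run. The probe-level fit and the fit without the CR amygdala array were chosen after seeing the data. Signal over background limits Lepr, Insr, Ghsr and Glp1r.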

Other observations

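The CR amygdala array, alone on its slide, had the most spots well above background (69.6%) and the lowest level that was well above background (-6.11). The part of this in the readings below was not tested. Ins1, the other mouse insulin gene, was well above background there at -2.88 and was at -7.58 to -6.93 on the other 8 arrays, none of them well above background. Ghrl, the ghrelin gene, was well above background there at -4.30 and on none of the 8 others, where it lay between -7.17 and -5.67. Gcg, the source of glucagon-like peptide 1, was well above background in CR amygdala (-5.60) and AD amygdala (-4.90), and on no hypothalamus or prefrontal cortex array. The CR amygdala level of Gcg lies under the lowest level well above background on 7 of the 8 other arrays. These genes were picked out with the values in view.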
